A study of Homo sapiens with 27 samples.

Results

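The clustered protocadherins are 53 protein-coding genes of human chromosome 5. They were taken from GENCODE 29 by symbol: PCDHA, PCDHB or PCDHG followed by a digit, or by a subfamily letter A, B or C and a number. All 53 were among the 34584 genes of the tables, 19675 of which are protein coding. On GRCh 38, all on the plus strand, 15 alpha members span chr5:140786136-141012347, 16 beta members span chr5:141051135-141249365 and 22 gamma members span chr5:141330571-141512981. Poly-A selected, strand-specific RNA libraries had been made from 9 established human cell lines, 3 per line and 27 in all. The melanoma lines SK-Mel 24 and SK-Mel 28 are labelled skin, U2-OS is an osteosarcoma line labelled bone, A549 a lung adenocarcinoma line, U251 a glioblastoma line labelled brain, Caco2 a colorectal adenocarcinoma line labelled colon and HepG2 a liver tumour line. BJ is a line of dermal fibroblasts although labelled epithelial, and RT4 is a bladder tumour line although labelled kidney. No line carried a stated treatment or engineered allele. A549 and BJ grew in DMEM, RT4 and U2-OS in McCoy medium and the other 5 lines in EMEM, with 15% serum for SK-Mel 24 and 10% for the rest, so that line and medium cannot be told apart. The 3 libraries of a line are called biological replicates in the series design. Nothing says that they came from separate cultures, and a p-value here measures the spread between libraries, which may be technical.

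Clustered protocadherins are cadherin-like adhesion proteins of the cell surface, best known from neurons, where each cell displays its own combination and uses it to tell its own branches from those of other cells. In the alpha and gamma clusters each member has its own large first exon with its own promoter, spliced to a set of constant exons shared by the whole cluster. Beta members are encoded by single large exons with no constant part. In neurons most promoters are thought to be chosen at random in each cell, through DNA methylation, CTCF and cohesin, whereas the C-type members at the end of the alpha and gamma clusters are used more evenly.

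Each member's own promoter is the unit that can be on or off in a cell, so stretches from the promoters of some members described below are shown first. RefSeq promoters (GRCh38.p14, 250 bases before to 50 after the gene start) were found for 47 of the 53 members, 13 alpha, 14 beta and 20 gamma. Many hold a short element around the letters CGCT, printed here in capitals with 12 bases on its left and 8 on its right, 5′ to 3′, plus strand of chromosome 5. A stretch could be printed only where the element was found, so members without it are missing here. The 4 alpha stretches come first (chr5:140806983-140807006, chr5:140827901-140827924, chr5:140855845-140855868 and chr5:140875248-140875271, in the order printed).
PCDHA4: gccacatgatgtCGCTctttacca
PCDHA6: gccgcatgatgtCGCTgtctacca
PCDHA10: gccaccggatgtCGCTgtcgtcca
PCDHA12: gtcacatgatgtCGCTctacactc
The 3 beta stretches lie at chr5:141094548-141094571, chr5:141135183-141135206 and chr5:141182314-141182337.
PCDHB2: gacgcggggtggCGCTgcagcctt
PCDHB5: gacgcctggtggCGCTgcaggcta
PCDHB16: aacgcgtggtggCGCTgcaggtta
The 6 gamma stretches lie at chr5:141359925-141359948, chr5:141373839-141373862, chr5:141382653-141382676, chr5:141397867-141397890, chr5:141402718-141402741 and chr5:141475884-141475907.
PCDHGB2: acctctgagcgtCGCTgttggtca
PCDHGA6: gactctaagcgtCGCTgttgacca
PCDHGA7: gactcacagcgcCGCTgttcacca
PCDHGB5: gactctgggcgcCGCTgttggcca
PCDHGA9: gactctgagcgcCGCTgttgatca
PCDHGC3: gactctgtgtgcCGCTgtcggcca

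The letters beside CGCT differ between the clusters. Both strands of each 300-base promoter were searched. TGTCGCT was found in 10 of 13 alpha promoters, 1 of 14 beta and 3 of 20 gamma, and in 2.15% of the 27305 genes with a promoter in the table. TGGCGCT was found in 13 of 14 beta promoters, 0 of 13 alpha and 3 of 20 gamma, and in 4.92% of all genes. CGCTGTT was found in 13 of 20 gamma promoters, 0 of 13 alpha and 1 of 14 beta, and in 2.73% of all genes. The 3 strings share CGCT and can overlap, and CGCT alone is in 71.9% of all promoters. PCDHA9, PCDHAC1 and PCDHAC2 lack TGTCGCT in this window, and PCDHB1 lacks TGGCGCT. A match is a description of the letters and not a measured site.

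Libraries held 15597117 to 32583547 estimated counts, of which members took 175 to 434 in Caco2, 347 to 725 in HepG2 and up to 29389 in an SK-Mel 24 library. Mitochondrial genes took 71.1%, 33.8% and 32.6% of the counts in the 3 HepG2 libraries, with the highest share in replicate 1, against 0.928% to 5.72% in all other libraries, which lowers the TPM of every other HepG2 gene. Some defining markers were high in the line they label, such as ALB at a mean of 7110 TPM in HepG2, VIL1 at 333 TPM in Caco2 and COL1A2 at 7215 TPM in BJ. Others were not. SK-Mel 24 had SOX10 at 252 TPM and S100B at 7822 TPM but MLANA at 1.08 TPM, TYR at 0.329 TPM and PMEL at 3.1 TPM. A549 had KRT7 at 1454 TPM but NKX2-1 at 0.0135 TPM and SFTPB at 0.192 TPM. U251 had FABP7 at 125 TPM and SOX2 at 39.4 TPM but GFAP at 3.11 TPM and AQP4 at 0 TPM. U2-OS had RUNX2 at 12.2 TPM and ALPL at 3.47 TPM but BGLAP at 0.202 TPM and SP7 at 0.0221 TPM. RT4 expressed the urothelial gene UPK2 at 163 TPM and the kidney gene UMOD at 0 TPM, and BJ had the epithelial marker EPCAM at 0.668 TPM.

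No 2 lines used the same set of clustered protocadherins, and the number in use ran from 0 to 20. A member is called detected in a line where all 3 libraries have at least 1 TPM, a level scaled to transcript length and library total. SK-Mel 24 had 20 of 53 detected, 2 alpha, 10 beta and 8 gamma. BJ had 16 (0 alpha, 3 beta and 13 gamma) and U2-OS had 15 (2 alpha, 10 beta and 3 gamma). A549 had 12, with 7 alpha, 1 beta and 4 gamma. U251 had 11 (1, 5 and 5) and SK-Mel 28 had 9 (0, 7 and 2). RT4 had 4, Caco2 had 1 and HepG2 had 0. Of all protein-coding genes, 39.9% (HepG2) to 61.8% (U2-OS) passed the same mark. In these bulk libraries, fewer cells using a member and less RNA per cell cannot be told apart.

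**Figure D1:**
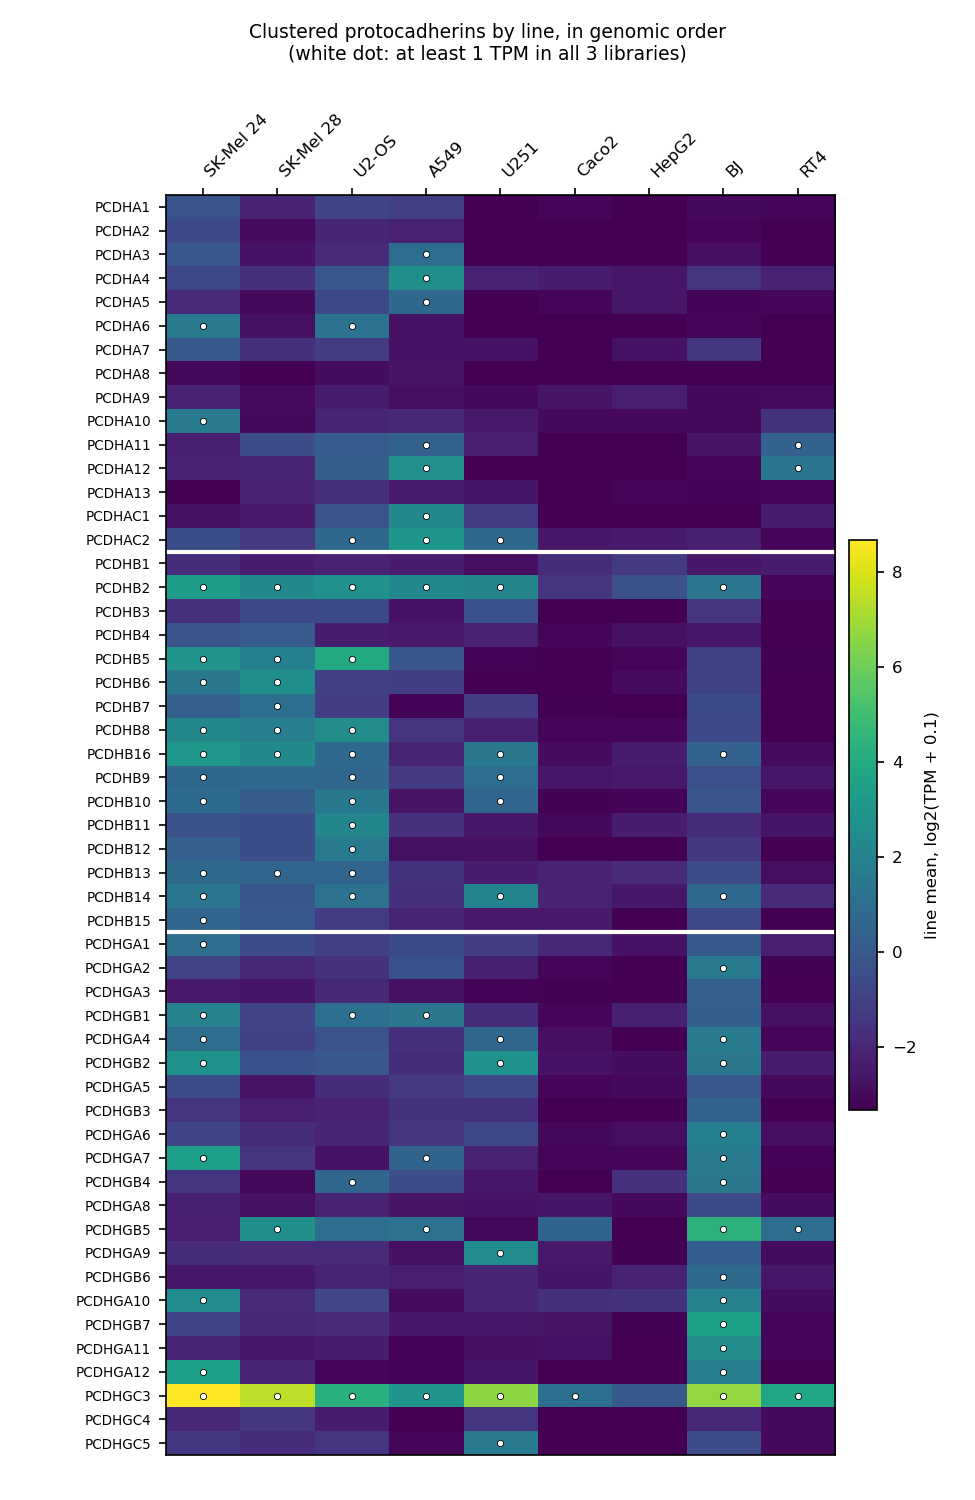
Mean level of each of the 53 members (vertical axis, in genomic order) in each of the 9 lines (horizontal axis), coloured by log2 of TPM plus 0.1, with a white dot where all 3 libraries had at least 1 TPM. Dots are most numerous in SK-Mel 24 (20) and BJ (16), fall mostly among alpha members in A549 and among gamma members in BJ, and are missing in HepG2.

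Use was narrow for most members. In no line were 14 members detected, 17 were detected in exactly 1 line, 3 in at least 5 lines and 0 in all 9. The widest was PCDHGC3, detected in 8 lines. It missed the mark only in HepG2, at 0.649, 1.17 and 0.906 TPM, where the mitochondrial share lowers TPM. With TPM rescaled without mitochondrial genes, PCDHGC3 passed in HepG2 too, so the 0 in all 9 holds only for the deposited TPM. In Caco2, 87.2% of PCDHGC3 TPM, and in HepG2 96.4%, fell on a transcript made mostly of exons that all gamma members share. By comparison, 8078 of 19675 protein-coding genes had a line mean of at least 1 deposited TPM in all 9 lines. None of the 53 members did, with PCDHGC3 at a mean of 0.907 TPM in HepG2. The line that was highest for the most members differed by cluster. A549 was highest for 7 of 15 alpha members, U2-OS for 5 of 16 beta members and BJ for 12 of 22 gamma members. SK-Mel 24 came next in each cluster, highest for 6 alpha, 4 beta and 7 gamma members. For 36 of 53 members, all libraries of the highest line lay above all libraries of the second. The share of all genes that would pass the same check was not counted, so this says nothing particular about the members.

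The summed level of a cluster describes how much message it made in each line. The alpha sum was 26.1, 33.5 and 34.6 TPM in the A549 libraries, 31.4 ± 4.63 (SD, n = 3). It was next highest in SK-Mel 24 at 10.7 ± 1.2 TPM and U2-OS at 9.61 ± 2.9 TPM (each SD, n = 3). In BJ, HepG2 and Caco2 it was 0.854, 0.4 and 0.273 TPM. A549 thus lay apart from the other lines in the alpha cluster.

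Beta sums were high in 3 lines. U2-OS had 59, 51.6 and 31 TPM, 47.2 ± 14.5 (SD, n = 3), with replicate 3 the lowest. SK-Mel 24 had 40.8, 40.6 and 59 TPM, 46.8 ± 10.6 (SD, n = 3). The libraries of these 2 lines overlapped. SK-Mel 28 followed at 33.8 ± 2.97 TPM, U251 had 15.8 TPM, BJ 10.6 TPM and A549 7.77 TPM, and the lowest was RT4 at 0.484 TPM.

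Gamma sums were carried by PCDHGC3 in several lines. The sum over all 22 gamma members was 393, 426 and 532 TPM in SK-Mel 24, 183, 175 and 206 TPM in SK-Mel 28, and 176, 173 and 180 TPM in BJ. Without PCDHGC3, the order changed: BJ was highest at 71.8 ± 1.27 TPM (SD, n = 3), SK-Mel 24 had 45.1 ± 7 TPM, U251 20 TPM and SK-Mel 28 10.4 TPM. PCDHGC3 alone made up 79.8% of all member TPM in SK-Mel 24, 79.4% in SK-Mel 28, 71.9% in U251 and 65.7% in RT4, against 55.6% in BJ, 23.5% in U2-OS and 13.5% in A549. The HepG2 sums of 0.4 (alpha), 1.59 (beta) and 1.78 TPM (gamma) became 1.37, 4.21 and 4.79 TPM when TPM was rescaled without mitochondrial genes, and 2 members were then detected.

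**Figure D2:**
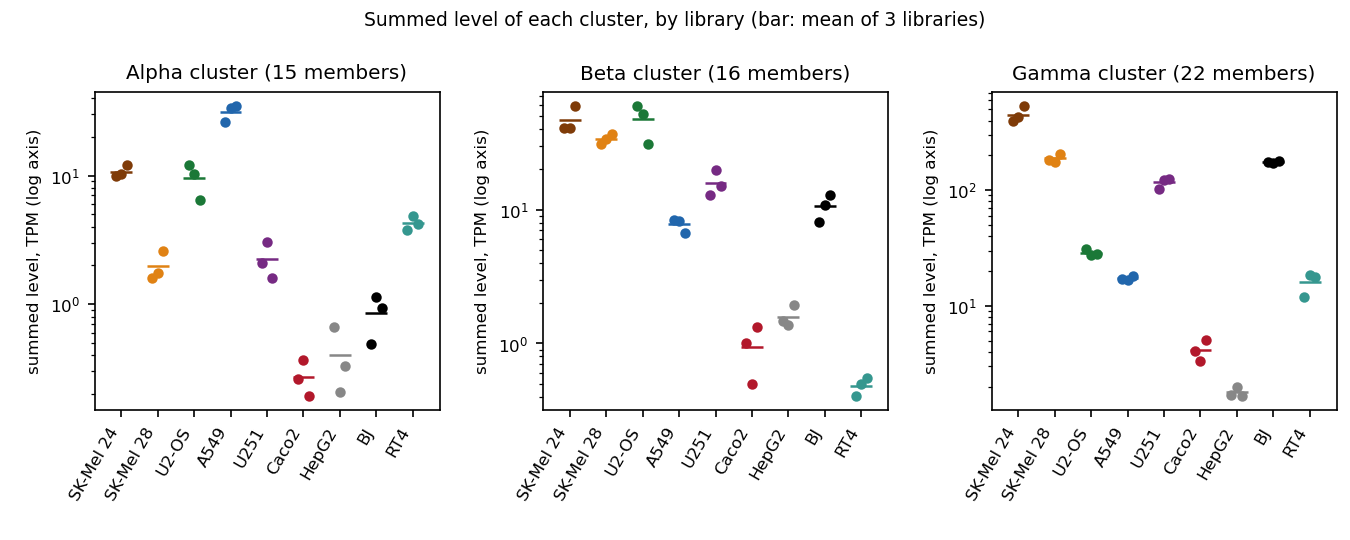
Summed level of the alpha, beta and gamma members in TPM (vertical log axes) for each library, by line, with bars at the mean of 3 libraries. A549 is highest for alpha (26.1 to 34.6 TPM), U2-OS and SK-Mel 24 overlap at the top for beta, and SK-Mel 24 is highest for gamma (393 to 532 TPM).

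All 52 members tested differed among the 9 lines (edgeR's quasi-likelihood F test over all genes, Benjamini-Hochberg false discovery rate of 0.05), but so did 98.3% of the 17220 genes tested, so this count says nothing particular about the members. PCDHA8 was too low to be tested. Its highest line mean was 0.0567 TPM, in A549.

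The C-type members did not share 1 highest line, although both alpha ones were highest in A549. PCDHGC3, the first of 3 C-type genes of the gamma cluster (chr5:141475947-141512979), was the highest of all members in level. SK-Mel 24 libraries had 350, 386 and 479 TPM, and SK-Mel 28 libraries 172, 166 and 195 TPM. BJ had 105, 102 and 107 TPM and U251 84.5, 101 and 106 TPM. These last 2 lines overlapped, while SK-Mel 24 lay above SK-Mel 28, and SK-Mel 28 above all other lines, without overlap. U2-OS was far lower at 17.8, 18.1 and 21.4 TPM, followed by RT4 at 10.7, 15.1 and 15.2 TPM and A549 at 7.61, 7.44 and 7.76 TPM. Caco2 had 1.95, 2.3 and 1.61 TPM and HepG2 0.649, 1.17 and 0.906 TPM. Against the mean of the other 8 lines, PCDHGC3 was higher in SK-Mel 24 by 4.44 log2 units (SE 0.12, adjusted p = 2.51e-20) and lower in HepG2, with a log2 fold change of -3.70 (SE 0.22, adjusted p = 1.61e-13). The SE of a log2 fold change is given throughout as its absolute value divided by the square root of the edgeR F statistic. It was not taken from the fit itself.

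Part of the PCDHGC3 value rests on exons that all gamma members share. For a PCDHGC3 transcript of 2346 bases, 2179 (92.9%) lie in the shared exons, beside a first exon of only 167 bases. It held 96.4% of the gene's TPM in HepG2, 87.2% in Caco2, 69.1% in BJ and 57.5% in RT4, and 30.1% to 44.3% in the other 5 lines. Counting only the 2 transcripts with a full first exon gave 221 ± 37.9 TPM in SK-Mel 24 and 109 ± 15.1 TPM in SK-Mel 28 (each SD, n = 3). U251 then had 56.2, 62.1 and 71.4 TPM and BJ 43.3, 22.9 and 25.3 TPM, without overlap. On this count Caco2 was listed at 0 TPM in all 3 libraries and HepG2 at a mean of 0.00813 TPM. The order of U251 and BJ, and the detection of PCDHGC3 in Caco2, thus depended on which PCDHGC3 transcripts were counted. PCDHGC3 was the only member detected in Caco2.

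The 2 alpha C-type members were both highest in A549. PCDHAC1 had 5.35, 5.64 and 4.72 TPM there, and the next line, U2-OS, had 0.771, 0.559 and 0.936 TPM. BJ, Caco2 and HepG2 had no PCDHAC1 count in any library. PCDHAC2 had 6.85, 8.49 and 8.5 TPM in A549, while U2-OS (1.42, 1.62 and 1.43 TPM) and U251 (1.13, 2.12 and 1.19 TPM) overlapped each other. No other line reached 1 TPM of either gene in any library.

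Of the other gamma C-types, PCDHGC5 was highest in U251 at 2.43, 3.3 and 3.32 TPM, above BJ at 0.662, 0.607 and 0.464 TPM. No other line had a PCDHGC5 mean above 0.267 TPM. PCDHGC4 had a mean of at most 0.274 TPM, and the SK-Mel 28 value came mostly from replicate 3 (0.0541, 0.0388 and 0.729 TPM). A549, Caco2 and HepG2 had no PCDHGC4 count. PCDHGC4 was therefore not detected in any line.

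**Figure D3:**
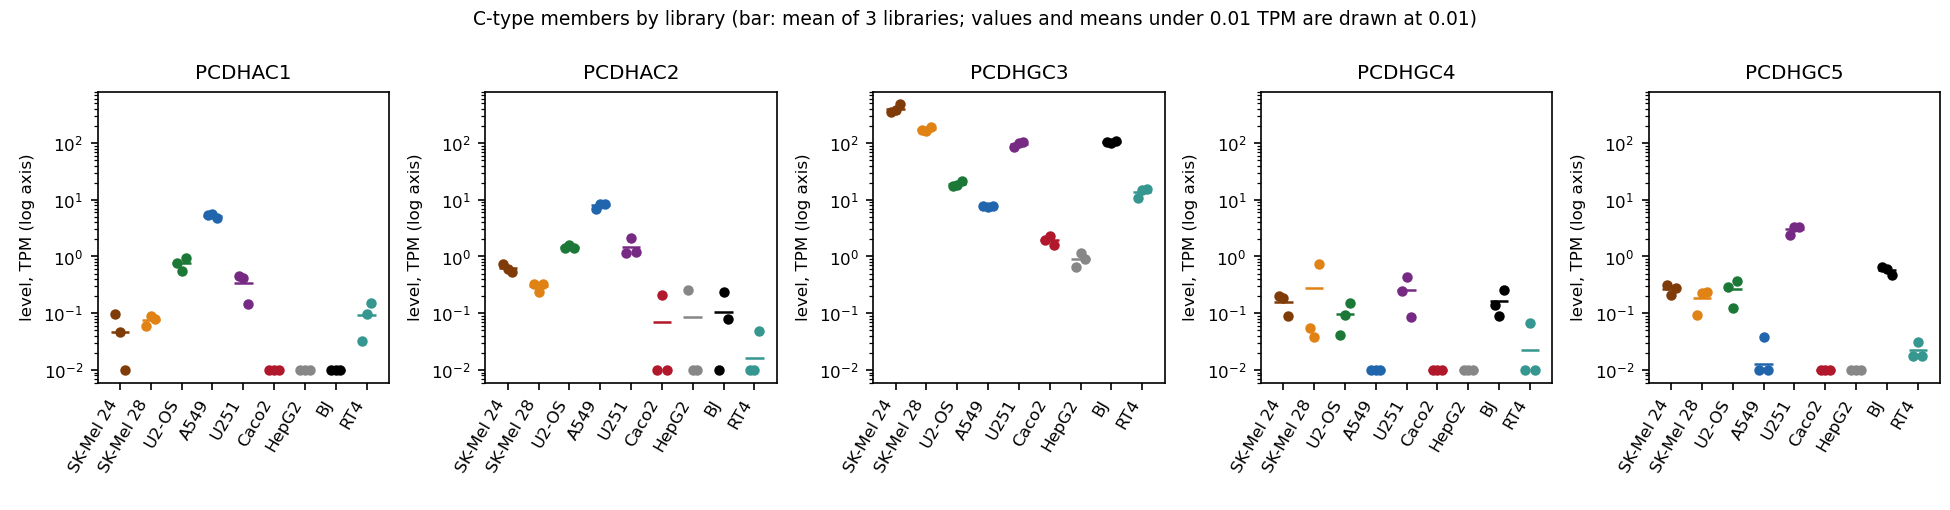
Level of the 5 C-type members in TPM (vertical log axes, values under 0.01 drawn at 0.01) in each library, by line, with bars at the mean of 3 libraries. PCDHAC1 and PCDHAC2 peak in A549, PCDHGC3 in SK-Mel 24 and PCDHGC5 in U251, and PCDHGC4 stays below 1 TPM in every library.

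Among the alternate alpha members, A549 and SK-Mel 24 used different ones. PCDHA12 had 5.08, 7.08 and 7.41 TPM in A549, 2.1, 3.08 and 2.21 TPM in RT4, and 1.65, 1.17 and 0.601 TPM in U2-OS. A549 lay above RT4 and RT4 above U2-OS without overlap, and U251, Caco2 and HepG2 had no count. In SK-Mel 24 the PCDHA12 mean was 0.121 TPM.
PCDHA4 had 4.17, 6.4 and 7.9 TPM in A549 and 1.26, 0.927 and 0.392 TPM in U2-OS, and its means in the other lines were 0.065 to 0.508 TPM. A549 also had PCDHA3 at a mean of 1.9 TPM, PCDHA5 at 1.49 TPM and PCDHA11 at 1.24 TPM. The last of these was as high in RT4, at 1.08, 1.23 and 1.46 TPM, which overlapped A549 at 1.25, 1.24 and 1.22 TPM.

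PCDHA6 showed another pattern. SK-Mel 24 had 2.89, 2.56 and 3.4 TPM and U2-OS 3.16, 2.48 and 1.11 TPM, and these overlapped. Means elsewhere were at most 0.0511 TPM, with no count in U251, Caco2, HepG2 and RT4. PCDHA10 was high in SK-Mel 24 alone, at 2.42, 3.09 and 3.32 TPM against 0.387, 0.152 and 0.172 TPM in RT4, the next line. The stretches printed above for these 4 alpha promoters were picked for holding TGTCGCT. By mean level the 4 genes were highest in A549 or SK-Mel 24.

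In the beta cluster the same 3 lines were high for many members, but not at the same ones. PCDHB2 was the most widely used, with 8.38, 8.41 and 13.7 TPM in SK-Mel 24 and 8.58, 7.22 and 5.26 TPM in U2-OS, which overlapped. SK-Mel 28, A549, U251 and BJ had PCDHB2 means of 5, 4.76, 4.24 and 2.55 TPM. HepG2 had 0.678 TPM, Caco2 0.261 TPM and RT4 0.0131 TPM from 2 counts.
PCDHB5 was highest in U2-OS at 19, 17.8 and 9.5 TPM, above SK-Mel 24 at 7.27, 6.37 and 8.88 TPM and SK-Mel 28 at 3.11, 3.33 and 3.96 TPM. Its mean was 0.838 TPM in A549 and at most 0.4 TPM in the remaining lines, and no count fell on it in Caco2. PCDHB8 followed the same 3 lines with means of 6.01, 4.96 and 3.36 TPM. The libraries of U2-OS and SK-Mel 24 overlapped for PCDHB8.

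PCDHB16 was high in both SK-Mel lines, with 6.86, 6.42 and 11.9 TPM in SK-Mel 24 and 4, 5.62 and 6.02 TPM in SK-Mel 28, and its means in U251, U2-OS and BJ were 2.67, 1.59 and 1.27 TPM. PCDHB6 reversed the order of the SK-Mel lines, with 6.31, 6.59 and 5.48 TPM in SK-Mel 28 and 2.43, 2.5 and 3.17 TPM in SK-Mel 24. Every other line had a mean of at most 0.4 TPM of PCDHB6. PCDHB7 was likewise highest in SK-Mel 28 at 1.98, 1.86 and 2.12 TPM, against 0.892, 1.07 and 1.53 TPM in SK-Mel 24. PCDHB11 was a U2-OS gene, with 6.46, 4.46 and 2.6 TPM against a mean of 0.678 TPM in SK-Mel 24, the next line. U251 led 3 beta members, among them PCDHB14 at a mean of 3.98 TPM and PCDHB9 at 1.92 TPM.

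Beta promoters carry the TGGCGCT form of the element in 13 of 14 cases, including the widely used PCDHB2 and the narrowly used PCDHB7. PCDHB1, the one without it, had a highest line mean of 0.305 TPM. PCDHB3 and PCDHB4, which hold it, had highest line means of 0.706 and 0.987 TPM and were not detected in any line. In the alpha cluster, PCDHAC1 and PCDHAC2 lack TGTCGCT and had means of 5.24 and 7.94 TPM in A549. A link between the element and level was not tested.

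In the gamma A and B subfamilies, BJ stood apart by the number of members in use, and SK-Mel 24 and U251 each had a few at a high level. The gamma A sum was similar in BJ (29.5, 30 and 30.6 TPM) and SK-Mel 24 (31.4, 29.4 and 37 TPM), with overlap. The gamma B sum did not overlap, at 40.8, 40.3 and 42 TPM in BJ and 10.7, 9.96 and 15.6 TPM in SK-Mel 24.
PCDHGB5 was the highest of these in BJ, at 23.2, 18.2 and 19.9 TPM. SK-Mel 28 followed at 6.88, 5.24 and 6.47 TPM, without overlap, and A549, RT4, U2-OS and Caco2 had means of 2.2, 1.85, 1.83 and 1.34 TPM. Within Caco2 the libraries varied from 0.592 to 2.55 TPM. The mean was only 0.0984 TPM in SK-Mel 24 and 0.0181 TPM in U251, and HepG2 had no count.

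PCDHGB7 had 10.3, 11.7 and 11.7 TPM in BJ and at most 0.462 TPM as a mean in any other line. PCDHGA11 had 7.26, 5 and 5.18 TPM in BJ and a mean of at most 0.148 TPM in any other line. PCDHGA6 had 3.09, 3.43 and 3.87 TPM in BJ, with U251 next at a mean of 0.504 TPM, and PCDHGA2 had 2.56, 2.59 and 3.63 TPM in BJ, with A549 next at a mean of 0.702 TPM. PCDHGA3 and PCDHGB3 were lower but again highest in BJ, with means of 1.18 and 1.26 TPM.

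SK-Mel 24 was highest for several gamma A members. PCDHGA12 had 11, 9.36 and 11.9 TPM there and 4.68, 2.81 and 2.53 TPM in BJ, and a mean of 0.147 TPM or less in each of the other lines. PCDHGA7 had 9.22, 9.89 and 12.6 TPM in SK-Mel 24 and 2.66, 2.86 and 2.97 TPM in BJ, with A549 next at a mean of 1.37 TPM. PCDHGA10 had 5.24, 5.31 and 6.12 TPM in SK-Mel 24 and 2.71, 4.48 and 4.58 TPM in BJ, without overlap, and PCDHGA1 had a mean of 1.87 TPM in SK-Mel 24. PCDHGB2 was shared by SK-Mel 24 (6.34, 5.98 and 8.97 TPM) and U251 (6.17, 6.86 and 8.13 TPM), whose libraries overlapped. PCDHGA9 was highest in U251, at 5.45, 6 and 5.31 TPM against 0.915, 1.43 and 0.923 TPM in BJ, and its log2 fold change against the mean of the other 8 lines was 5.82 (SE 0.26, adjusted p = 1.34e-15).

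How firmly a value belongs to 1 member depends on the exons behind it, because the shared exons of a cluster (59, 89 and 2718 bases in alpha, 59, 89 and 2033 in gamma) are the same in every member. Transcripts with shared exons held 81.4% of alpha TPM in A549, 77.9% in RT4 and 70% in SK-Mel 24. They held 79.2% of gamma TPM without PCDHGC3 in BJ, 59.9% in SK-Mel 24, 57.2% in U251 and 31.1% in A549. Single alpha and gamma values are less certain for this reason, while a cluster's summed counts do not depend on how shared reads were divided within it, although its summed TPM can.

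Each line was then tested against the mean of the other 8 lines. A call needed an adjusted p under 0.05 and at least a 2-fold difference. The mean of the others is taken over logs, so lines with no count pull it down, and a member can be called higher without lying above the average TPM of the others. It also misses members that are low in a line where another line has no count. Calls by DESeq2, which handles such lines in another way, are given beside the lower calls. The shares of all genes in brackets are those of edgeR and are no background for the DESeq2 counts.

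SK-Mel 24 had the most higher members, 41 of 52 (19% of all genes tested were called higher in this line), of which 22 had at least 1 TPM and 16 were highest in SK-Mel 24. They were 8 of 14 alpha, 15 of 16 beta and 18 of 22 gamma members. None of the 52 was called lower by edgeR (11.2% of all genes), 0 were lower at an unadjusted p under 0.05, and DESeq2 called 2. PCDHGA12 had a mean of 10.8 TPM here against 0.446 TPM over the other 8 lines (adjusted p = 8.51e-16), and PCDHA6 had 2.95 against 0.295 TPM (adjusted p = 1.28e-11).

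BJ came next with 34 of 52 higher (20.1% of all genes), among them all 22 gamma members, 10 of 16 beta and 2 of 14 alpha members. Of the 34, 19 had at least 1 TPM and 12 were highest in BJ. PCDHGA11 had 5.81 against 0.0516 TPM (adjusted p = 7.21e-17). PCDHGA12 was also called higher, at 3.34 against 1.38 TPM (adjusted p = 3.91e-14), although SK-Mel 24 exceeded it. Lower members were PCDHAC2 and PCDHA10, 2 of 52 (13.1% of all genes), and DESeq2 called 5. The edgeR count was 1 without Caco2 replicate 2, HepG2 replicate 1, BJ replicate 1, BJ replicate 2 or RT4 replicate 3.

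U2-OS had 33 of 52 higher (25.3% of all genes), 11 of 14 alpha, 14 of 16 beta and 8 of 22 gamma, with 17 at 1 TPM or more and 6 highest in U2-OS. PCDHB5 had 15.4 against 1.53 TPM (adjusted p = 7.14e-15), and PCDHA6 2.25 against 0.382 TPM (adjusted p = 1.74e-10). The only lower member was PCDHGA7 (1 of 52, 10.9% of all genes), and DESeq2 called 2. That count was 0 without HepG2 replicate 3 or RT4 replicate 1 and 2 without U2-OS replicate 2.

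SK-Mel 28 had 22 of 52 higher (20.3% of all genes), 3 of 14 alpha, 14 of 16 beta and 5 of 22 gamma. Of these, 11 had at least 1 TPM and 3 were highest in SK-Mel 28. PCDHB6 had 6.13 against 0.484 TPM (adjusted p = 3.36e-13), and PCDHB7 had 1.98 against 0.3 TPM (adjusted p = 1.16e-12). PCDHA10 and PCDHGA5 were lower, 2 of 52 (13.4% of all genes), 4 by DESeq2, and 1 without SK-Mel 28 replicate 3.

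A549 had 21 of 52 higher (18.4% of all genes), 11 of 14 alpha, 3 of 16 beta and 7 of 22 gamma. Of these, 11 had at least 1 TPM. PCDHA12 had 6.52 against 0.483 TPM (adjusted p = 6.58e-13), and PCDHAC1 5.24 against 0.164 TPM (adjusted p = 2.53e-13). Lower members numbered 8 of 52 (10.8% of all genes), 4 beta and 4 gamma, and 13 by DESeq2. PCDHGC3 was one of the 8, at 7.6 against 102 TPM (adjusted p = 5.89e-10).

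U251 had 18 of 52 higher (15% of all genes), 2 alpha, 7 beta and 9 gamma. PCDHGC5 had 3.02 against 0.166 TPM (adjusted p = 3.39e-13). Lower members numbered 10 of 52 (11.6% of all genes), 6 without U251 replicate 3 and 21 by DESeq2. They included PCDHA4 at 0.13 against 1.03 TPM.

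Caco2, RT4 and HepG2 had the fewest detected members, although the alpha sum of RT4, with a mean of 4.27 TPM, was above the U251 mean of 2.25 TPM. Caco2 had 19 of 52 lower (13.9% of all genes), 3 alpha, 8 beta and 8 gamma, and 41 by DESeq2. PCDHB5 had no count in Caco2, which made it at least 154-fold lower than the mean of the other lines in depth-scaled counts (against a floor of 3 counts over the 3 libraries). PCDHAC2 had 1 count, a ratio of 353-fold in depth-scaled counts (95% counting interval 63.4 to 13956). In TPM its Caco2 mean was 0.0711, all from replicate 2. RT4, HepG2 and BJ were also low, at means of 0.0164, 0.0839 and 0.106 TPM, while A549 had 7.94 TPM. Low PCDHAC2 was therefore not particular to Caco2. The only higher member was PCDHGB5 (1 of 52, 19.8% of all genes), at 1.34 TPM against 4.07 TPM over the other lines, and it was not called without Caco2 replicate 3, the library at 2.55 TPM. The PCDHB5 call was lost without U251 replicate 3, HepG2 replicate 1 or RT4 replicate 3, and the PCDHAC2 call without HepG2 replicate 1 or RT4 replicate 3.

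RT4 had 21 of 52 lower (14.2% of all genes), 10 beta, 10 gamma and 1 alpha, and 38 by DESeq2. PCDHB2, used in 6 other lines, had 2 counts in RT4, a ratio of 336-fold (95% counting interval 93 to 2773), and PCDHB8 had no count and was at least 76.6-fold lower. Without Caco2 replicate 1 or HepG2 replicate 2 the PCDHB8 call was lost. The 5 higher members (18.6% of all genes) were PCDHAC1, PCDHA10, PCDHA11, PCDHA12 and PCDHGB5, and only 3 of them had at least 1 TPM.

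HepG2 had 14 of 52 lower (23.5% of all genes), 10 of them gamma, and 25 by DESeq2. PCDHGB5 had no count in HepG2, at least 295-fold below the mean of the other lines. The 9 higher members (25.8% of all genes) had means of only 0.0472 to 0.678 TPM, and 2 of them lay above the average TPM of the other lines. This count was 5 without HepG2 replicate 1, the library with the highest mitochondrial share. Whether that share had a part in these calls was not tested.

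The 3 lines with the fewest detected members were also those with the epithelial marker EPCAM highest, at means of 886 TPM in Caco2, 212 TPM in RT4 and 46.8 TPM in HepG2, against 0.0479 to 8.7 TPM in the other 6 lines. The neuronal tubulin gene TUBB3 ran the other way, at 2.37 to 13.4 TPM in these 3 lines and 64.7 to 140 TPM in the other 6. CDH1 was less clear-cut, at 216 and 212 TPM in Caco2 and RT4 but 3.67 TPM in HepG2, and 40.6 TPM in A549. The neuronal marker RBFOX3 was between 0.00864 and 5.4 TPM in all lines. The other neuronal markers looked at (SNAP25, SYT1, MAP2 and STMN2) and the epithelial marker KRT8 are not given here. EPCAM and TUBB3 alone therefore do not describe an epithelial or neuronal state of these lines. The part of these markers in the member levels was not tested.

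Members that set 1 line apart from every other line were counted as line-enriched. This took a one-sided edgeR test against each of the other 8 lines and a fitted level at least 4-fold above the next line. Line-enriched members numbered 16 of 52, or 30.8%, against 14.1% of all genes tested. The number fell to 9 and to 5 in 2 other fits given below. The shares of all genes in those fits are not given, so the excess is shown for the main fit only. Of the 16, 8 were enriched in BJ, all gamma A or B members, 3 in A549, all alpha members, 2 in HepG2, and 1 each in SK-Mel 24, U2-OS and U251. SK-Mel 28, Caco2 and RT4 had none by edgeR or by DESeq2.

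In BJ the largest margins over the next line were those of PCDHGA11 (48.7-fold, adjusted p = 7.43e-08) and PCDHGB7 (32.3-fold, adjusted p = 3.21e-08). PCDHGA3 was 14.8-fold above the next line (adjusted p = 0.00121), and PCDHGA6, PCDHGB3, PCDHGA2 and PCDHGB5 were 7.81-fold, 7.72-fold, 5.11-fold and 4.46-fold above. The eighth, PCDHGA8, had a mean of only 0.543 TPM. All 8 have a RefSeq promoter in the table. PCDHGA2, PCDHGA3, PCDHGA6, PCDHGA8 and PCDHGB5 hold CGCTGTT, as printed above for PCDHGA6 and PCDHGB5, and PCDHGA11, PCDHGB3 and PCDHGB7 lack these letters in the window.

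In A549 the enriched members were PCDHAC1 (9.1-fold, adjusted p = 1.96e-04), PCDHA4 (6.7-fold, adjusted p = 7.13e-06) and PCDHAC2 (6.58-fold, adjusted p = 4.50e-04). PCDHB11 was 5.65-fold above the next line in U2-OS (adjusted p = 0.00199), PCDHA10 4.84-fold in SK-Mel 24 (adjusted p = 0.0016) and PCDHGC5 4.23-fold in U251 (adjusted p = 0.0122). The HepG2 pair, PCDHA9 and PCDHB1, had means of 0.099 and 0.305 TPM. For PCDHB1 the HepG2 libraries (0.613, 0.111 and 0.192 TPM) overlapped those of Caco2 (0.235, 0.109 and 0.247 TPM). HepG2 replicate 1, the library with the highest mitochondrial share, held 212 of the 276 PCDHB1 counts of the line. For PCDHA9 the SK-Mel 24 mean was higher in TPM, at 0.124. With the number given after P in the sample titles as a covariate, 9 of the 16 remained, and PCDHAC2, PCDHB11, PCDHGA3, PCDHGA8, PCDHGC5, PCDHA9 and PCDHB1 did not. With that number as a replicate block, a fit chosen after seeing the data, 5 of the 16 remained. That fit also lost PCDHAC1, PCDHGB3, PCDHGB5 and PCDHA10.

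**Figure D4:**
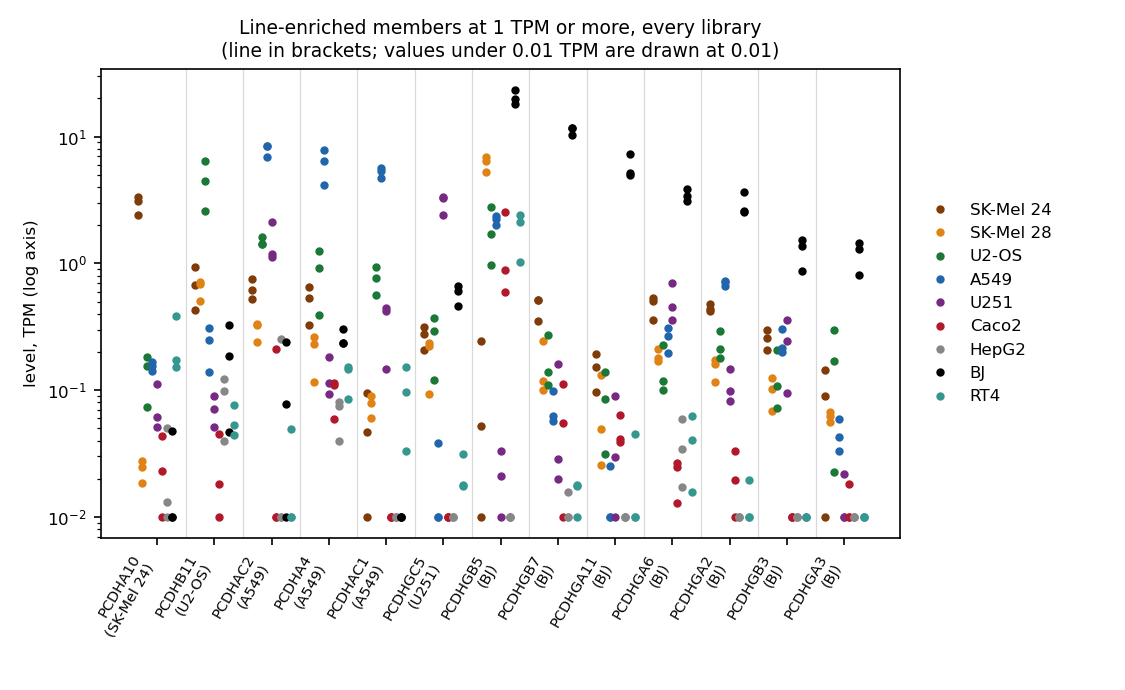
Level in TPM (vertical log axis, values under 0.01 drawn at 0.01) of the 13 line-enriched members with a line mean of at least 1 TPM, with every library of every line as a point coloured by line and the enriched line in brackets. The 3 points of the enriched line sit above all others, most widely for PCDHGA11 and PCDHGB7 in BJ.

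SK-Mel 28 and SK-Mel 24, the only lines with a shared tissue label, were compared directly. SK-Mel 28 used fewer and mostly the beta members. Of 52 members, 26 were lower in SK-Mel 28 (16.5% of all genes) and 4 were higher (15.5% of all genes). The lower ones were 9 of 14 alpha, 14 of 22 gamma and 3 of 16 beta members.

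PCDHGA12 had 0.231, 0.144 and 0.0676 TPM in SK-Mel 28 against 11, 9.36 and 11.9 TPM in SK-Mel 24, a log2 fold change of -6.41 (SE 0.47, adjusted p = 1.75e-09). PCDHA6 (-6.02, SE 0.65, adjusted p = 7.65e-07), PCDHA10 (-5.62, SE 0.56, adjusted p = 8.03e-09) and PCDHGA7 (-5.51, SE 0.42, adjusted p = 1.14e-10) were also far lower in SK-Mel 28. PCDHGC3, high in both, was lower by a smaller step, with a log2 fold change of -1.09 (SE 0.21, adjusted p = 1.17e-04). The libraries of the 2 lines did not overlap for any of these 5 members.

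PCDHGB5 went the other way, with 6.88, 5.24 and 6.47 TPM in SK-Mel 28 against 0, 0.0517 and 0.244 TPM in SK-Mel 24, a log2 fold change of 6.00 (SE 0.64, adjusted p = 5.93e-08). PCDHB6 was higher by 1.24 log2 units (SE 0.40, adjusted p = 0.0155), a call that was lost at 1.15 or 1.16 log2 units without SK-Mel 24 replicate 1, SK-Mel 24 replicate 2 or SK-Mel 28 replicate 2. The other members higher in SK-Mel 28 were PCDHA11, at 0.601 against 0.105 TPM, and PCDHA13, at 32 against 0 counts, at least 9.2-fold higher. PCDHGB5 and PCDHGA7 thus differed in opposite directions between these lines. Their printed promoter stretches both hold CGCTGTT, but stretches were picked for such letters, and a link to level was not tested.

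**Figure D5:**
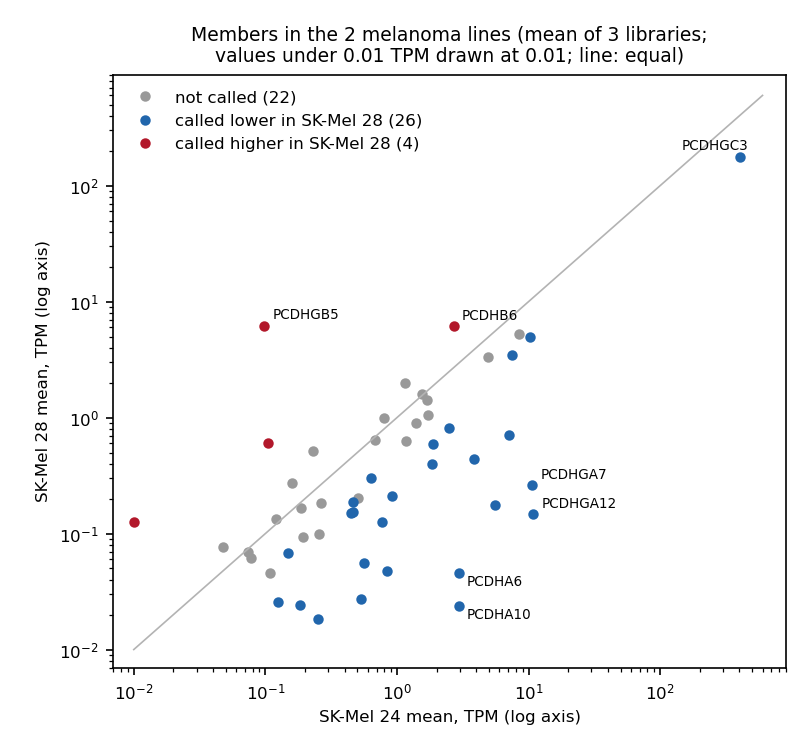
Mean level of the 52 tested members in SK-Mel 24 (horizontal log axis, TPM) and SK-Mel 28 (vertical log axis, TPM), with values under 0.01 drawn at 0.01 and a line of equal level. The 26 members called lower in SK-Mel 28 lie below the line, and PCDHGB5 stands far above it.

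Across the 9 line means, members of 1 cluster tended to vary together. The median Pearson correlation was 0.448 over 105 alpha pairs, 0.639 over 120 beta pairs and 0.561 over 231 gamma pairs. Between clusters it was 0.188 for alpha with beta, 0.22 for beta with gamma and -0.0589 for alpha with gamma. These are descriptions over 9 points that share libraries, and within alpha and gamma the members also share exons.

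Genes known to control or accompany these clusters were counted from 4 lists. The regulators are 26 genes of CTCF, cohesin, DNA methylation and chromatin silencing. Of these, 20 had a line mean of at least 1 TPM in all 9 lines, and 25 of 26 differed among the lines (98.3% of all genes did). CTCF, which binds clustered protocadherin promoters, ranged from 10.2 TPM in HepG2 and 13.5 TPM in BJ to 45.6 TPM in U2-OS. SMCHD1, a silencer of these clusters, had means of 0.969 TPM in HepG2, 10.4 TPM in BJ and 77.7 TPM in U2-OS. DNMT3B, a methyltransferase that acts on new sites, was highest in Caco2 at 39.5 TPM and lowest in BJ at 0.647 TPM. Against the other lines, 11 of 26 regulators were higher and 1 lower in U2-OS (25.3% and 10.9% of all genes), and 4 were higher and 9 lower in HepG2 (25.8% and 23.5% of all genes). BJ had 1 higher and 4 lower (20.1% and 13.1% of all genes). Between the SK-Mel lines 1 was higher and 3 lower in SK-Mel 28 (15.5% and 16.5% of all genes).

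The 16 partners, which cut or carry the signal of clustered protocadherins inside the cell, were again mostly on everywhere, 14 of 16 at 1 TPM or more in all lines. ADAM10, a protease that sheds protocadherin ectodomains, ran from 3.74 TPM in HepG2 and 43.2 TPM in Caco2 to 222 TPM in SK-Mel 24. FYN, a kinase, ran from 1.9 TPM in Caco2 to 164 TPM in SK-Mel 28. RET, a receptor kinase, had a line mean of at most 0.25 TPM. Between the SK-Mel lines 3 of 16 partners were higher in SK-Mel 28 (15.5% of all genes).

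The nonclustered protocadherins and related large cadherins, 22 genes, also varied widely between lines. Their median log2 range between the highest and lowest line was 5.11, against 4.81 for the members and 3.30 for all protein-coding genes (on log2 of TPM plus 0.1). Of the 22, PCDH1 and PCDH12 also lie within 500 kb of the clusters. Only 1 of 22 was on in all 9 lines. PCDH18 was highest in BJ at 64.5 TPM, PCDH1 in SK-Mel 24 at 95.8 TPM and DCHS2 in U2-OS at 27.4 TPM. SK-Mel 24 had 11 of 21 tested higher and 4 lower (19% and 11.2% of all genes). U2-OS had 12 higher and 4 lower (25.3% and 10.9%), and HepG2 had 3 higher and 11 lower (25.8% and 23.5%). Between the SK-Mel lines 4 were higher and 10 lower in SK-Mel 28 (15.5% and 16.5% of all genes).

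Of the 30 other protein-coding genes within 500 kb of the clusters, 26 were tested against the mean of the other lines. The median log2 range of the 30 was 3.20, and 17 were at 1 TPM or more in all lines. In U2-OS, with 33 members higher, 10 neighbours were lower (10.9% of all genes). Caco2, with 19 members lower, had 9 neighbours higher (19.8% of all genes). HepG2, with 14 members lower, had 4 neighbours higher and 11 lower (25.8% and 23.5% of all genes). RT4, with 21 members lower, had 1 neighbour higher and 3 lower (18.6% and 14.2%). U251 had 5 higher and 2 lower (15% and 11.6%), and A549 had 1 higher and 5 lower (18.4% and 10.8%). SK-Mel 24, with 41 members higher, had 3 neighbours higher and 1 lower (19% and 11.2%), while BJ and SK-Mel 28 each had 3 higher and 2 lower (20.1% and 13.1% of all genes in BJ, 20.3% and 13.4% in SK-Mel 28). NDUFA2, a subunit of respiratory complex I, varied only from 80.9 TPM in U2-OS to 194 TPM in Caco2.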

How the data were processed

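Per the file headers, the authors' tables give for each transcript an estimated count, a TPM and an effective length. Tools named in the submitters' processing notes are kallisto 0.43.1 and CASAVA 1.8, with build GRCh 38. For the annotation of the index and the use of strand, nothing is stated in the sources used here. Of 176241 transcripts listed, 159887 matched GENCODE 29 and 9.28% did not and were left out. For tests, the deposited estimated counts were added up per gene and then rounded, and the deposited TPM values were summed to genes for levels. The deposited lengths entered 1 alternative. Reads of shared exons are divided among members in the deposited values.

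Counts were tested in 1 fit over all 27 libraries in edgeR 4.0.16 under R 4.3.3 (robust quasi-likelihood, TMM factors, filterByExpr, 1 coefficient per line), with limma 3.58.1 loaded by edgeR. Benjamini-Hochberg adjustment ran over all 17220 genes tested, of which 52 were members. The biological coefficient of variation was 24.2%. Simulated data were used to try the fit only for SK-Mel 28 against SK-Mel 24, and the outcome is not given here. The contrasts with the mean of the other lines, the line-enriched rule and genes absent from some lines were not simulated. Alternatives were other size factors, no low-count filter, no mitochondrial genes, an effective-length offset, protein-coding transcripts only, no minimum fold, other TPM thresholds, the P number of the sample titles (meaning not stated) as covariate, no HepG2, DESeq2 1.42.0 and leaving out each library. The members and lists were chosen with earlier results of these data known. Values per library are given for the C-type members, the 3 other members highest on average in each cluster, the 2 with the largest call in each line, line-enriched members with at least 1 TPM, and, for SK-Mel 28 against SK-Mel 24, the 4 that changed most each way. Other members named were chosen after their values were seen. Counting PCDHGC3 from 2 transcripts, and a fit with the P number as a replicate block, were alternatives added after seeing the data. Intervals and floors cover counting error only.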

Additional observations from a re-analysis of the deposited data

Results flagged for a closer look

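Reads also fell on 6 pseudogenes of the clusters, which enter none of the comparisons above. PCDHB18P had its highest mean in U2-OS, at 1.82 TPM. PCDHB17P reached 0.89 TPM and PCDHB19P 0.133 TPM in the same line. In BJ, PCDHGB9P had 0.105 TPM and PCDHGB8P 0.0754 TPM. PCDHA14 had its highest mean in RT4, at 0.0608 TPM.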

How the results depend on the processing

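Of 253 recomputed counts under the alternatives that change a setting, 35 moved by more than 1.5 times, and of 621 that leave out 1 library, 12 did. No named member changed direction. DESeq2 called more members lower against the mean of the other 8 lines: 41 in Caco2, 38 in RT4, 25 in HepG2, 21 in U251, 13 in A549, 5 in BJ, 4 in SK-Mel 28 and 2 each in SK-Mel 24 and U2-OS. The cause was not tested, and the shares of all genes that DESeq2 called lower are not given here. Without HepG2, 1 member was lower in SK-Mel 24 and 2 in U2-OS. With the P number as covariate, 1 was lower in SK-Mel 28 and 9 were line-enriched. With no minimum fold, 3 were lower in U2-OS. With an effective-length offset, or with protein-coding transcripts only, 1 was lower in BJ, and with the latter the PCDHAC2 call in Caco2 was lost. At 5 TPM, 8 members were detected in SK-Mel 24, 3 each in BJ, U251, A549, SK-Mel 28 and U2-OS, 1 in RT4 and 0 in Caco2. At 0.5 TPM they were 16 in SK-Mel 28, 2 in Caco2, 1 in HepG2 and 25 in BJ. With TPM rescaled without mitochondrial genes, 2 were detected in HepG2.

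Leaving out each library in turn gave 52 members differing among the lines in every fit. The members higher and lower against the mean of the other lines ranged from 39 to 42 and stayed at 0 in SK-Mel 24, 20 to 23 and 1 to 3 in SK-Mel 28, 27 to 33 and 0 to 2 in U2-OS, 20 to 21 and 7 to 8 in A549, 18 in every fit and 6 to 11 in U251, 0 to 1 and 17 to 20 in Caco2, 5 to 11 and 11 to 15 in HepG2, 33 to 36 and 1 to 2 in BJ, and 4 to 5 and 17 to 21 in RT4. Line-enriched members ranged from 14 to 16. SK-Mel 28 had 3 to 5 higher and 20 to 26 lower than SK-Mel 24. Detected members ranged from 20 to 21 in SK-Mel 24, 9 to 10 in SK-Mel 28, 15 to 17 in U2-OS and 16 to 21 in BJ, and stayed at 12 in A549, 11 in U251, 4 in RT4, 1 in Caco2 and 0 in HepG2.

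SK-Mel 24 and SK-Mel 28 share the P numbers 10, 9 and 8. The deviations of same-numbered libraries from their line means correlated at 0.109, 0.269 and 0.0962 across genes, and each of the 6 libraries correlated best with its own number, but the third value is under 0.1, so the numbers were not taken to pair the libraries. With the P number as a replicate block, a fit chosen after seeing the data that in effect drops A549 replicate 3 because no other library has its number, SK-Mel 28 had 4 members higher and 24 lower than SK-Mel 24, and 52 members differed among the lines. Against the mean of the other lines the block left 0 lower in SK-Mel 28, 6 lower in U251, 0 higher in Caco2, 5 higher in HepG2 and 2 higher in RT4. Only 5 members were line-enriched, all 5 among the 16. The calls of PCDHA6 in U2-OS and of PCDHAC1 and PCDHA12 in A549 were lost. All members together held only 175 to 725 counts per library in Caco2 and HepG2, which limits precision there. Reads of shared exons make single alpha and gamma values less certain. A line and its medium cannot be told apart.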
